A study of Mus musculus with 47 samples.

Results

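Genes of the extracellular matrix were followed in mouse lung after ragweed challenge: the collagens, and a set of glycoproteins and proteoglycans that are laid down with them. The members were all genes with a probe set whose only annotated symbol had the form Col, a number, a and a number, together with Sparc, Fn1, Eln, Postn, Tnc, Bgn, Dcn, Lum, Fbn1, Fbln1, Fbln5, Lox, Loxl1, Thbs1 and Vcan. They came to 53 of the 16365 genes with a single symbol on the arrays, 40 of them collagens and 13 of the 15 other names. Fbn1 had no probe set of its own, and Thbs1 was found only on a probe set that it shared with Pald1 (160469_at, version 2 A), so neither was described.

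Collagens are triple helices of alpha chains. Fibrillar collagens give tissue its tensile strength, collagen IV forms the sheet of the basement membrane beneath alveolar epithelium and endothelium, and collagen VI forms beaded microfibrils between them. Elastin, cross-linked by lysyl oxidases, lets the alveolar wall recoil, small proteoglycans such as decorin bind to collagen fibrils and space them, and glycoproteins such as fibronectin, periostin and SPARC link matrix to cells. Allergic airway disease that lasts is known for matrix deposition beneath the airway epithelium, for which fibroblasts and smooth muscle cells are the main source.

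Whole lungs were hybridised to Affymetrix murine U74 arrays, a set of A, B and C arrays made first in 1 version and then again as version 2, for 6 tables in all. The 4 groups, PBS and ragweed lungs taken at 24 h or at 72 h, had 2 samples each, called 1a and 1b. Ragweed mice received ragweed pollen protein with alum on days 0 and 3 and ragweed pollen protein into the trachea on days 10 and 17. PBS mice received PBS on the same days, and the times count from the last challenge. The labels name alum for the ragweed mice alone, give no strain, sex or age, and do not state if 1a and 1b came from separate mice, so the p-values measure only the spread between these samples, and that spread may be technical. Nor do they give a genotype or a transgene for any group.

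The members had 177 rows in the 6 tables, with 112 distinct probe set names. The comparisons used first-version A, restricted to the 9977 probe sets that version 2 A also has, with version 2 B and version 2 C. On these tables the members had 84 probe sets (52 on A, 14 on B and 18 on C). Of these, 70 probe sets of 45 genes lay above the floor on at least 2 arrays and were tested, and 42 lay above it on all 8 arrays. The floor is the 40th percentile of a table's intensities, 291.6 on A, 356.4 on B and 244.7 on C, and anything dimmer was set to that value for the tests. Col10a1, Col17a1, Col19a1, Col22a1, Col25a1, Col4a6, Col8a2 and Lox had no probe set that reached the test. Values in the text are intensities before the raise to the floor, on the common scale of each table, and they can be compared between samples of a probe set but not between probe sets. Precision was limited by the number of arrays, with a median standard error per group difference of 0.23 log2 units for A, 0.32 for B and 0.45 for C.

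Sparc and 1 of the 2 tested probe sets of Col1a1 were lower in ragweed lungs than in PBS lungs at 72 h, by 1.85-fold and 1.55-fold. Col6a1 was 1.41-fold higher in ragweed lungs over both times, and Eln was 1.70-fold higher in ragweed lungs at 72 h than at 24 h. Fn1, Postn and Col4a1 stayed within 0.25 log2 units of PBS at both times on these arrays. On the second version of the A array at 72 h, Dcn lay below PBS and Col6a1 and Fn1 above it, the directions of the first version. When that table was adjusted together with first-version B and C, Dcn passed the test (adjusted p 0.0348). Col6a1 and Fn1 did not (0.104 for each). The Col1a1 probe set was not called on version 2 A and differed by 0.17 in the other direction.

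No member passed an adjusted p of 0.05 (limma, Benjamini-Hochberg over all 25250 probe sets) for ragweed against PBS at 24 h, where 0.23% of all tested probe sets did. At an unadjusted p of 0.05, 4 of the 70 were higher and 8 lower, beside 2190 of all 25250 in either direction. At 72 h, 2 of 70 fell, against 0.194% of all tested probe sets, and 0 rose, against 0.333%. At an unadjusted p of 0.05, 5 were higher and 12 lower at 72 h, beside 2431 of all 25250 in either direction. Over the mean of both times 1 member rose, against 0.463%, and 2 fell, against 0.186%. For the difference in the ragweed effect between 72 h and 24 h, 0 members were called (0.0356% of all tested). There 7 of the 70 members had an unadjusted p under 0.05, beside 1857 of all 25250. When the trend of the variance with intensity was left out of the limma fit, 0 members were called in any of the 6 contrasts.

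Over the 70 probe sets the median log2 difference between ragweed and PBS was -0.05 at 24 h and -0.07 at 72 h, beside 0 over all tested probe sets at both times. In 10 of the 70 both ragweed samples lay above both PBS samples at 24 h (14.3%, beside 16.3% of all tested), and in 19 they lay below (27.1%, beside 17.8%). At 72 h, 13 lay above (18.6%, beside 18% of all) and 17 below (24.3%, beside 17.8% of all). Shares of samples that do not overlap are a description here, and probe sets of a gene are not independent of each other. In these whole-lung samples, fewer cells of a type and less RNA per cell cannot be told apart.

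**Figure D1:**
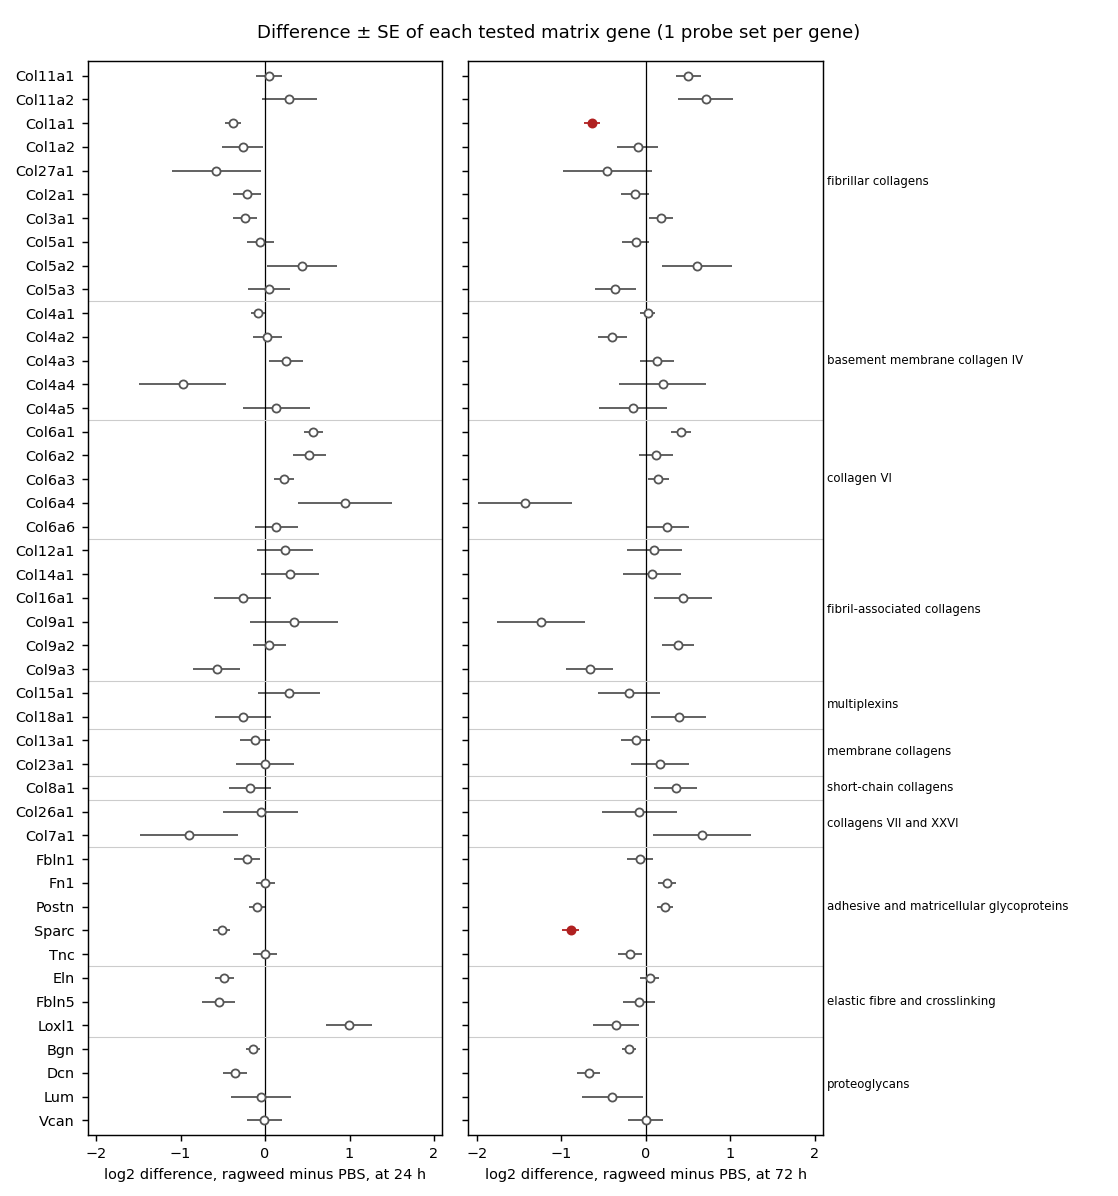
Log2 difference between ragweed and PBS (x axis, ± SE from the limma fit) for the 45 tested matrix genes, 1 probe set each, at 24 h (left) and 72 h (right), grouped by the kind of matrix protein. Filled red points passed an adjusted p of 0.05: none at 24 h, and Col1a1 (-0.64) and Sparc (-0.89) at 72 h.

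Among the fibrillar collagens, 17 probe sets of 10 genes were tested. Their median difference was -0.21 at 24 h, with 6 above 0 and 11 below, and -0.09 at 72 h, with 8 above 0 and 9 below. Only the Col1a1 probe set 94305_at passed the test. Col1a1 encodes the alpha chain that makes up most of type I collagen. This probe set read 7065 and 6590 in the PBS samples and 4919 and 5595 in the ragweed samples at 24 h. At 72 h it read 6253 and 6139 in PBS and 3988 and 3988 in ragweed. The ragweed samples lay below the PBS samples at each time without overlap, and the difference was -0.38 ± 0.10 (SE, adjusted p 0.268) at 24 h, -0.64 ± 0.10 (adjusted p 0.0339) at 72 h and -0.51 ± 0.07 (adjusted p 0.0211) over both times.

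The other Col1a1 probe set pointed the opposite way. Probe set 103709_at read 4621 and 3715 in PBS and 5215 and 4756 in ragweed at 24 h, and 3762 and 3606 in PBS and 4420 and 4885 in ragweed at 72 h. Here the ragweed samples lay above PBS at both times, by 0.27 ± 0.13 (adjusted p 0.62) and 0.34 ± 0.13 (adjusted p 0.427). The direction of Col1a1 on first-version A therefore depended on the probe set, and no direction is given for the gene. Leaving out any 1 of the 8 samples ended the call of 94305_at at 72 h and over both times (adjusted p 0.0811 to 0.185 and 0.056 to 0.141), although its value at 72 h stayed between -0.65 and -0.62. Of 14 other settings, 6 kept the 72 h call (adjusted p 0.00733 to 0.823).

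Col1a2, the partner chain of type I collagen, read 4092 and 4361 in PBS and 3557 and 3475 in ragweed at 24 h, and 7090 and 3823 in PBS and 5269 and 4529 in ragweed at 72 h. Its groups overlapped at 72 h, where sample 1a of PBS stood far above the rest, and the differences were -0.27 ± 0.24 and -0.09 ± 0.24. Col3a1, the main fibrillar collagen of distensible tissue, read 5527 and 5354 in PBS and 5421 and 3939 in ragweed at 24 h, and 4276 and 4285 against 4960 and 4750 at 72 h. The 72 h difference of 0.18 ± 0.14 had a 95% interval from -0.14 to 0.51. Neither gene passed the test at either time.

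Type V collagen sets the diameter of type I fibrils. The brighter Col5a1 probe set on A, 93472_at, read 2312 and 1769 in PBS and 1936 and 1960 in ragweed at 24 h, and 2069 and 2002 against 2057 and 1711 at 72 h, so that the groups overlapped at both times. A dimmer Col5a1 probe set, 101080_at, had ragweed below PBS at both times (662.5 and 574.9 against 408.6 and 319 at 24 h, 626.2 and 861.3 against 486.1 and 388.4 at 72 h), with differences of -0.77 ± 0.28 and -0.76 ± 0.28 that did not pass the test (adjusted p 0.476 and 0.429). On version 2 A its 72 h difference was 0.13. Outside the comparison, Col5a1 probe set 132617_at on first-version C pointed the opposite way. It read 1677 and 1738 in PBS and 3543 and 4881 in ragweed at 24 h. At 72 h it read 1948 and 1741 in PBS and 2692 and 2630 in ragweed. Ragweed lay above PBS at both times without overlap, which was not tested, and no direction is given for the gene. Col5a2 on C, probe set 167762_at, read 438 and 522 in PBS at 24 h, while both ragweed samples lay under the floor, at 89.76 and 129.8, a difference of at least 1.95-fold that did not pass (adjusted p 0.373). The Col5a2 probe set 92567_at on A gave the other sign at 72 h, 1840 and 983.5 in PBS and 1868 and 2247 in ragweed (0.61 ± 0.42).

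For type XI collagen, best known from cartilage, 1 probe set each of Col11a1 and Col11a2 was higher in ragweed at 72 h without passing the test. Col11a2 on C, the largest positive difference of the fibrillar group, read 1025 and 1264 in PBS and 1847 and 1881 in ragweed at 72 h (0.71 ± 0.33, adjusted p 0.545). Col11a1 on first-version A, 100481_at, read 223.8 and 338.3 in PBS and 416.8 and 478.1 in ragweed at 72 h (0.51 ± 0.15, adjusted p 0.298), but at 24 h 3 of its 4 values lay under the floor. On version 2 A it was above the floor on 0 arrays, with 150 and 163.5 in PBS and 163.4 and 61.14 in ragweed at 72 h. A Col11a1 probe set outside the comparison, 102505_f_at, overlapped at 72 h. The Col11a2 probe set 103616_at was above the floor on 0 arrays of first-version A. Of 10 chondrocyte markers, 6 were tested and 0 were called at 24 h or 72 h. Acan, Matn1, Comp and Snorc had no tested probe set. At an unadjusted p of 0.05, 2 were higher and 1 lower at 24 h, and 1 was higher and 1 lower at 72 h. The 6 tested had a median log2 difference of 0.505 at 24 h, with 4 above 0 and 2 below. At 72 h the median was 0, with 2 above and 2 below. Over both times Cytl1 was called lower (-0.98, adjusted p 0.0449). A sum of intensities gives bright probe sets the most weight. The summed intensity of those 6 ran from 9667 to 11548 in PBS and 7674 to 9091 in ragweed at 24 h, and from 9226 to 10176 and 5516 to 6617 at 72 h. Their part in the collagen values was not tested.

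Basement membrane collagen IV was represented by 7 tested probe sets of 5 genes, of which 0 were called at either time (0 and 3 at an unadjusted p of 0.05). Col4a1, which pairs with Col4a2 in every basement membrane, read 10299 and 11175 in PBS and 9924 and 10404 in ragweed at 24 h, and 9663 and 9198 against 9314 and 9835 at 72 h. These groups overlapped, and the 95% intervals of the difference ran from -0.28 to 0.12 at 24 h and from -0.18 to 0.22 at 72 h. Col4a2 read 12024 and 9924 in PBS and 10345 and 11969 in ragweed at 24 h. At 72 h it read 7933 and 10188 in PBS and 7697 and 6080 in ragweed, which did not overlap (-0.39 ± 0.17, adjusted p 0.51).

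Col4a4 belongs to the chain set of the mature alveolar and glomerular basement membrane. On C, probe set 136277_at read 3191 and 3423 in PBS and 2466 and 2377 in ragweed at 24 h, and 5022 and 3489 in PBS and 2155 and 2128 in ragweed at 72 h. All 4 ragweed samples lay below all 4 PBS samples, with differences of -0.45 ± 0.23 and -0.97 ± 0.23, which did not pass the test (adjusted p 0.661 and 0.161). The other Col4a4 probe set, 101774_at on A, had both 24 h ragweed samples under the floor (265.3 and 111.8, against 925.9 and 355.9 in PBS), a difference of at least 1.97-fold (adjusted p 0.691), and overlapped at 72 h.

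Collagen VI had 8 tested probe sets of 5 genes, with a median difference of 0.46 at 24 h, where 7 of 8 were above 0, and 0.14 at 72 h, where 6 of 8 were. Among them the Col6a4 probe sets 130998_i_at, 130999_f_at and 131119_at on version 2 C differed by 0.93, 0.95 and 0.39 at 24 h. On first-version C they differed by 0.12, -0.23 and -0.33. Col6a1 was the member that passed the test. It read 4879 and 5629 in PBS and 7437 and 8175 in ragweed at 24 h, and 4285 and 4454 in PBS and 6300 and 5390 in ragweed at 72 h. Ragweed lay above PBS at each time without overlap, by 0.57 ± 0.12 (adjusted p 0.15) at 24 h and 0.42 ± 0.12 (adjusted p 0.26) at 72 h, and by 0.49 ± 0.08 (adjusted p 0.0457) over both. Leaving out any 1 of the 8 samples gave 0.44 to 0.55 and ended the call (adjusted p 0.0904 to 0.214), and 5 of 11 other settings kept it (adjusted p 0.0165 to 0.183).

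The other chains of the collagen VI monomer were higher at 24 h as well, without passing the test. Col6a2 read 3029 and 2091 in PBS and 3187 and 4104 in ragweed at 24 h (0.52 ± 0.20, adjusted p 0.492), and 2430 and 2059 against 2429 and 2439 at 72 h, where the groups overlapped. Col6a3 on A read 2644 and 2312 in PBS and 2688 and 3099 in ragweed at 24 h, and 2323 and 2430 against 2724 and 2556 at 72 h, a difference of 0.22 ± 0.12 and 0.15 ± 0.12. A second Col6a3 probe set on C, 169943_f_at, overlapped at 24 h, with 5496 and 6192 in PBS and 4379 and 5510 in ragweed, so the 3 chains were not all higher on every probe set. Col6a4 had 3 probe sets on C that disagreed: 130999_f_at read 707.6 and 610.5 in PBS and lay under the floor in both ragweed samples at 72 h (at least 2.69-fold, adjusted p 0.454), while 130998_i_at had both ragweed samples above PBS.

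The sequence just upstream of the start was looked up for the genes called on the arrays, since Sparc and Col6a1 moved in opposite directions. The RefSeq promoter table (GRCm38.p6) held 38 of the 53 member genes, Sparc and Col6a1 among them. It did not hold Col1a1, Eln or Dcn, so the called genes are shown only in part. The 250 bases before each start are printed 5′ to 3′ on the minus strand, the strand of both genes, for Sparc at chr11:55420081-55420330 and for Col6a1 at chr10:76726045-76726294. Capitals mark runs of at least 15 bases made only of C and T, a feature chosen after the sequences were seen.
Sparc: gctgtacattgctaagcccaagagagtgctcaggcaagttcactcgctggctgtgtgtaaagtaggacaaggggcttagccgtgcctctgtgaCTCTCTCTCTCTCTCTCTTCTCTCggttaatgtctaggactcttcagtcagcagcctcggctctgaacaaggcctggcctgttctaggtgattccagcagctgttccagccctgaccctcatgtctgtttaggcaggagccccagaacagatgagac
Col6a1: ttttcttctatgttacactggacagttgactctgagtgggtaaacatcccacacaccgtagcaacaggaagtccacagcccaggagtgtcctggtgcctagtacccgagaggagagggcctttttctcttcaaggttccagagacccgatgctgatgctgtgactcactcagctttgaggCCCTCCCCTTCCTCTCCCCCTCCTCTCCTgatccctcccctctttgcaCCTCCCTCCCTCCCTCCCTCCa
Sparc had 1 such run, of 24 bases, from 157 to 134 bases before the start. Col6a1 had a run of 29 bases from 70 to 42 before the start and one of 21 bases from 22 to 2 before it. Such a run, on either strand, was present in 17.5% of all 32851 windows of this length and in 15 of the 38 members' windows (39.5%). Searched on both strands, TATAAA was found in neither of these windows, in 6 of the 38 members' windows (15.8%) and in 12.4% of all. CCAAT, also in neither, was in 14 of the 38 (36.8%) and in 33.8% of all. GGGCGG, also in neither, was in 24 of the 38 (63.2%) and in 32.7% of all. These are descriptions of the letters, not of factor binding.

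Fibril-associated collagens, which sit on the surface of larger fibrils, had 10 tested probe sets of 6 genes and 0 calls at either time (1 and 3 at an unadjusted p of 0.05). Their median difference was 0.24 at 24 h and 0.07 at 72 h. Col14a1, which binds decorin, was measured on all 3 arrays, above 0 on each at 24 h (0.30, 0.18 and 0.87 on A, B and C) and with no common direction at 72 h. On B it read 1002 and 903.3 in PBS and 429.6 and 498.1 in ragweed at 72 h (-1.04 ± 0.39, adjusted p 0.396), with 462.8 to 645.2 at 24 h. On C it read 872.6 and 1406 in PBS and 2338 and 1745 in ragweed at 24 h (0.87 ± 0.32, adjusted p 0.484). On A its groups overlapped at both times.

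The type IX chains, which coat cartilage fibrils, also differed by chain. Col9a1 on first-version A read 1227 and 1269 in PBS and 954.5 and 284.7 in ragweed at 72 h (-1.24 ± 0.52, adjusted p 0.505). On version 2 A its groups overlapped, with 492.7 and 619 in PBS and 732.7 and 204.8 in ragweed at 72 h (-0.404 ± 0.515). Col9a2 read 1233 and 1011 in PBS and 1513 and 1402 in ragweed at 72 h (0.38 ± 0.19). Col9a3 on first-version A lay lower in ragweed at both times (-0.57 ± 0.28 and -0.66 ± 0.28), but on version 2 A it lay higher at 72 h, with 386 and 361.1 in PBS and 544.7 and 501.5 in ragweed (0.49 ± 0.21). On C, where 4 of its 8 values were above the floor, it lay higher at 24 h (1.02 ± 0.59). None of these passed the test. Col16a1, on B, read 1227 and 760.7 in PBS and 1321 and 1302 in ragweed at 72 h (0.44 ± 0.34).

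None of the remaining collagens passed the test. Col15a1 and Col18a1 are multiplexins of vascular basement membrane. Col18a1 lay within 0.39 log2 units of PBS at both times. Col15a1 differed by -0.20 at 72 h and lay under the floor in both PBS samples at 24 h (79.45 and 65.22, against 430.2 and 292.9 in ragweed, at least 1.22-fold, adjusted p 0.882). Col23a1, a membrane collagen, read 640.1 and 552.1 in PBS on C at 24 h, with both ragweed samples under the floor, a difference of at least 2.43-fold (adjusted p 0.577), and overlapped at 72 h. Col7a1, the anchoring fibril collagen, showed the same pattern on A at 24 h (806.4 and 369.8 in PBS, at least 1.87-fold, adjusted p 0.744) and overlapped at 72 h. Col8a1 read 640.5 and 628.3 in PBS and 520.3 and 606.1 in ragweed at 24 h (-0.18 ± 0.25), and 504.6 and 414.8 against 622.9 and 549.5 at 72 h (0.35 ± 0.25), so that ragweed lay below PBS at 24 h and above it at 72 h. Col13a1, a membrane collagen, lay lower in ragweed without overlap at 72 h on probe set 102261_f_at (1690 and 1642 against 1516 and 1555, -0.12 ± 0.17) and at 24 h on 102262_r_at (-0.52 ± 0.25).

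Among the adhesive and matricellular glycoproteins, Sparc differed most and with the smallest p of all members. SPARC is a secreted collagen-binding glycoprotein that assists collagen processing and is made by fibroblasts and endothelial cells. Probe set 97160_at read 11796 and 13157 in PBS and 8796 and 8648 in ragweed at 24 h. At 72 h it read 9198 and 10299 in PBS and 5490 and 5045 in ragweed. The ragweed samples lay below the PBS samples of their own time in every case, and those of 72 h lay below all other samples. The difference was -0.51 ± 0.10 (adjusted p 0.134) at 24 h, -0.89 ± 0.10 (adjusted p 0.0093) at 72 h and -0.70 ± 0.07 (adjusted p 0.00404) over both times.

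Leaving out any 1 sample of ragweed at 24 h, PBS at 72 h or ragweed at 72 h ended the Sparc call at 72 h, with adjusted p up to 0.117, while leaving out either PBS sample of 24 h did not. The value stayed between -0.97 and -0.81. Over both times the call was lost without ragweed 24 h sample 1b, PBS 72 h sample 1b or either ragweed sample of 72 h (adjusted p up to 0.0746). Of 14 other settings, 11 kept the 72 h call (adjusted p 0.000917 to 0.549). Against PBS of 24 h in place of PBS of 72 h the 72 h difference was -1.24. A second Sparc probe set, 164300_i_at on B, was above the floor on 1 array and was not tested. Of 8 endothelial markers, all tested, 0 were called at 24 h or 72 h (4 and 4 at an unadjusted p of 0.05). Over both times 3 of the 8 were called: Kdr and Cdh5 were lower (-0.78 and -0.55, adjusted p 0.0464 and 0.0353) and Vwf higher (0.48, adjusted p 0.0438). Their summed intensity at 72 h was 29223 to 31577 in PBS and 27155 to 27535 in ragweed. Of 12 fibroblast markers, 9 were tested and 0 were called at 24 h, 72 h or over both (2, 1 and 3 at an unadjusted p of 0.05), and their sum at 72 h was 20232 to 21219 in PBS and 18056 to 20021 in ragweed. Their part in the Sparc result was not tested.

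Fn1, fibronectin, read 3929 and 3864 in PBS and 4009 and 3810 in ragweed at 24 h, and 3720 and 4391 in PBS and 4976 and 4631 in ragweed at 72 h. The groups overlapped at 24 h and did not at 72 h, where the difference was 0.25 ± 0.11 (adjusted p 0.518). Postn, periostin, a matricellular protein induced by type 2 cytokines in airway epithelium and fibroblasts, read 4258 and 4667 in PBS and 4143 and 4233 in ragweed at 24 h. At 72 h it read 4069 and 4448 in PBS and 4919 and 5018 in ragweed, a difference of 0.22 ± 0.10 (adjusted p 0.51) with a 95% interval from 0.005 to 0.44. Neither gene passed the test. The interval measures only the spread between these samples and is not adjusted for the number of probe sets. On version 2 A the Postn difference at 72 h was 0.07 ± 0.12.

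Tnc, tenascin C, was dim, with 83.72 to 385.8 over the 8 samples and 3 arrays above the floor, and gave no measured difference at 24 h. Fbln1, a fibulin of elastic fibres and basement membranes, had 3 probe sets on A. The brightest, 94309_g_at, read 2115 and 1671 in PBS and 1525 and 1725 in ragweed at 24 h, and 2192 and 2347 against 2116 and 2210 at 72 h, with overlap at both times. Probe set 94307_at lay lower in ragweed at 24 h (670.7 and 809.1 against 406.2 and 504.6, -0.70 ± 0.25, adjusted p 0.463) and overlapped at 72 h.

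Of the elastic fibre genes, Eln passed the test between the ragweed times. Eln encodes tropoelastin. Probe set 92836_at read 7559 and 7090 in PBS and 5323 and 5142 in ragweed at 24 h, and 9314 and 7933 in PBS and 9608 and 8240 in ragweed at 72 h. The ragweed samples of 24 h lay below all others and the 72 h groups overlapped. The difference from PBS was -0.49 ± 0.11 (adjusted p 0.231) at 24 h and 0.05 ± 0.11 at 72 h, and ragweed lungs at 72 h were above those at 24 h by 0.77 ± 0.11 (adjusted p 0.0478). The difference between the ragweed effects of the times, 0.54 ± 0.16, did not pass the test (adjusted p 0.524), and leaving out any 1 of the 8 samples ended the call between the ragweed times (adjusted p 0.105 to 0.24), which 6 of 11 other settings kept (adjusted p 0.0158 to 0.164). The dim Eln probe set 92207_at did not show this pattern, with 100.8 and 364.4 in ragweed at 24 h and 313.8 and 369 at 72 h.

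Fbln5, which anchors elastic fibres to cells, read 7549 and 5849 in PBS and 4457 and 4614 in ragweed at 24 h on B (-0.55 ± 0.19, adjusted p 0.394), and 5676 and 5517 against 4805 and 5855 at 72 h. Loxl1, a lysyl oxidase that cross-links elastin, went the other way at 24 h on A, with 332.7 and 270.1 in PBS and 563.7 and 685.7 in ragweed (0.997 ± 0.271, adjusted p 0.298). At 72 h it read 682.3 and 771.2 in PBS and 485.8 and 666.3 in ragweed. On C, Loxl1 read 1399 and 1269 against 1566 and 1637 at 24 h, a difference of 0.27 ± 0.33 in the same direction. None of these passed the test.

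The proteoglycans had 5 tested probe sets of 4 genes, and all 5 lay below 0 at 24 h and 4 at 72 h, with medians of -0.10 and -0.39. Dcn, decorin, read 4069 and 5404 in PBS and 3579 and 3750 in ragweed at 24 h. At 72 h it read 8175 and 7375 in PBS and 4739 and 4996 in ragweed. Ragweed lay below PBS at both times without overlap, by -0.36 ± 0.14 (adjusted p 0.506) and -0.67 ± 0.14 (adjusted p 0.113), short of the test when p-values were adjusted over the 3 tables. The PBS samples of 72 h stood above all others, by 0.73 ± 0.14 over PBS at 24 h (adjusted p 0.124), and against PBS of 24 h the ragweed samples of 72 h differed by 0.05.

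Bgn, biglycan, the closest relative of decorin, read 19199 and 18733 in PBS and 16654 and 17784 in ragweed at 24 h, and 18078 and 17784 against 15334 and 16031 at 72 h. The groups did not overlap at either time, but the differences were small, -0.14 ± 0.08 and -0.19 ± 0.08 (adjusted p 0.73 and 0.518). On version 2 A the direction at 72 h was the other one, with 17766 and 16851 in PBS and 22955 and 20263 in ragweed (0.32 ± 0.14), and a C probe set, 167023_f_at, overlapped at both times. Lum, lumican, read 557.3 and 307.3 in PBS and 468.4 and 340.5 in ragweed at 24 h, and 798.5 and 537.5 against 457.7 and 542.8 at 72 h, overlapping at each time. Vcan, versican, a large proteoglycan of provisional matrix, was above the floor on 2 arrays and could not be followed.

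**Figure D2:**
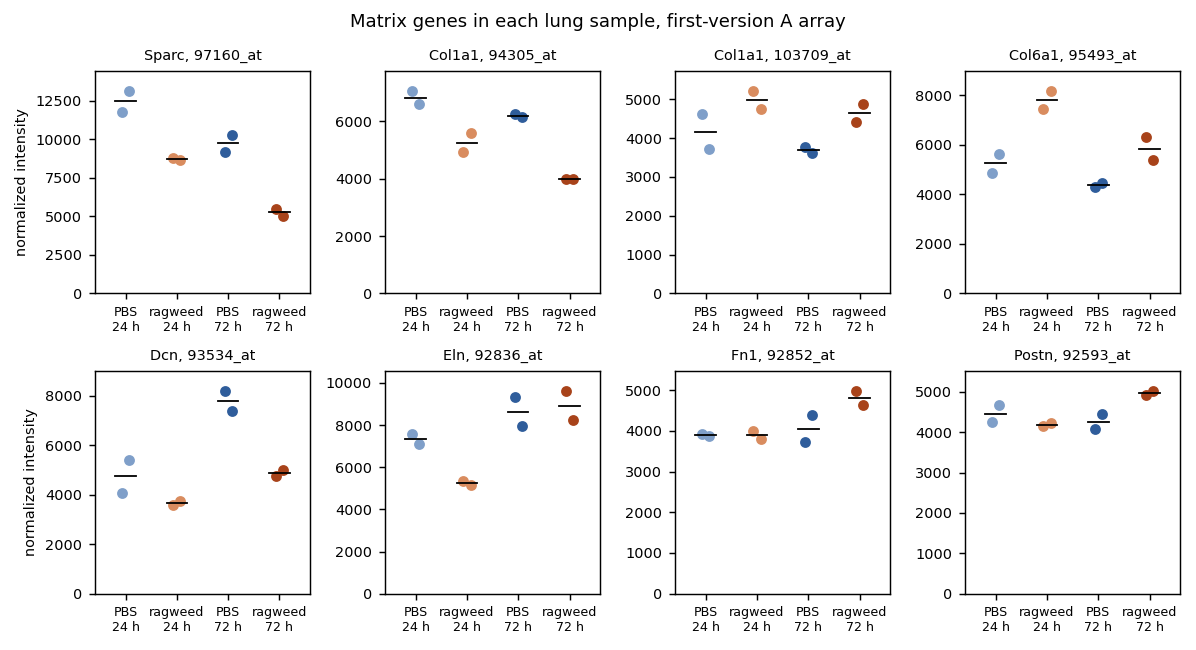
Normalized intensity (y axis, from 0) of 8 matrix probe sets in each of the 8 samples on first-version A, with 1 point per sample and a line at the mean of each pair. Sparc and Col1a1 94305_at were lowest in ragweed at 72 h (5045 to 5490 and 3988), Col1a1 103709_at and Col6a1 were higher in ragweed at both times, and Dcn was highest in PBS at 72 h (7375 to 8175).

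The time comparison within a treatment asked which matrix genes differed between the 24 h and 72 h lungs. In PBS lungs 0 members were called, where 0.281% of all tested probe sets were. At an unadjusted p of 0.05 there were 7 of the 70 members, beside 2107 of all 25250 probe sets. In ragweed lungs 1 rose, Eln, against 0.238%, and 1 fell, against 0.0673%. The member that fell was Sparc, by 0.73 on the log2 scale (SE 0.10, adjusted p 0.0339). That call was lost when any 1 of the 8 samples was left out (adjusted p 0.0894 to 0.169). Sparc was also lower in PBS at 72 h than at 24 h, by -0.36 ± 0.10 (adjusted p 0.332), and the test of ragweed against PBS in that change with time gave -0.37 ± 0.14 (adjusted p 0.629).

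Summed signal of striated muscle, squamous epithelium and fat markers was highest in the PBS lungs of 72 h. Of 12 striated muscle markers, 11 were tested, and their summed intensity was 31735 to 34652 in PBS at 72 h and 15298 to 20762 over the other 6 samples. Of 8 squamous epithelium markers, 6 were tested, with sums of 33433 to 34524 in PBS at 72 h and 11410 to 15128 elsewhere. Of 8 fat markers, 5 were tested, with sums of 5045 to 5401 and 2634 to 4992. Myh4, Krt5, Krt10, Cfd, Plin1 and Cidec had no tested probe set. Not every marker rose from PBS at 24 h to PBS at 72 h: Krt1, Krt14 and Lep differed by -0.42, -0.17 and -0.25. Mesothelium markers (5 tested) summed to 11964 to 12425 in PBS at 24 h and 7812 to 8542 in PBS at 72 h. The chondrocyte sum was not higher at 72 h either. Dcn and Col9a1 on first-version A, Col14a1 on version 2 B and Col4a4 on version 2 C were also highest in PBS at 72 h. So was Dcn on version 2 A, among the groups measured there, which leave out ragweed at 24 h. The part of muscle, squamous epithelium and fat in their differences was not tested. At 24 h against the other PBS pair, Dcn would have been called lower in ragweed (-1.08, adjusted p 0.0224) and Col6a1 higher (0.84, adjusted p 0.0307), over alternatives whose adjusted p ran from 0.0224 to 0.769 and from 0.0307 to 0.338.

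Of 12 macrophage markers, 10 were tested, and 2 rose in ragweed lungs at 24 h and 4 at 72 h, Ctss and C1qa at both times. At 24 h 7 of the 10 lay above 0 and 3 below, with a median log2 difference of 0.63. At 72 h 9 lay above 0 and 1, Lyz2, below, with a median of 0.85. Lyz2 differed by -0.74 at 24 h and -0.36 at 72 h. The summed intensity of the 10, to which bright probe sets add the most, was 55503 to 63162 in PBS and 50082 to 50498 in ragweed at 24 h. At 72 h it was 53391 to 58289 in PBS and 61883 to 72967 in ragweed. Of 10 smooth muscle markers, 9 were tested and Acta2 rose at 72 h (0.86, adjusted p 0.0337), with sums at 72 h of 15420 to 16419 in PBS and 18804 to 20505 in ragweed. As a check of the labelled tissue, 8 of 9 lung epithelium markers were tested, with Sftpb the one left out and sums of 156198 to 194334 over the 8 samples. How far a change in the mix of cells bears on the matrix values was not tested.

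The version 2 A array repeats the 72 h and PBS comparisons on the same samples with a second array. Its ragweed arrays analysed here are those of 72 h alone. All of its arrays came on a common scale, whereas the first-version PBS arrays had been deposited unscaled, with trimmed means of 79.6 to 373.5, beside ragweed arrays scaled to about 800. On first-version A the deposited processing therefore differed with treatment, and the arrays were brought to 1 scale before the comparison. Of the members, 40 tested probe sets could be compared at 72 h. The median absolute gap between the versions' log2 differences was 0.27, the largest was 1.15 (Col9a3), and 11 exceeded 0.5. The median difference over these probe sets was -0.07 on first-version A and 0.13 on version 2 A.

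**Figure D3:**
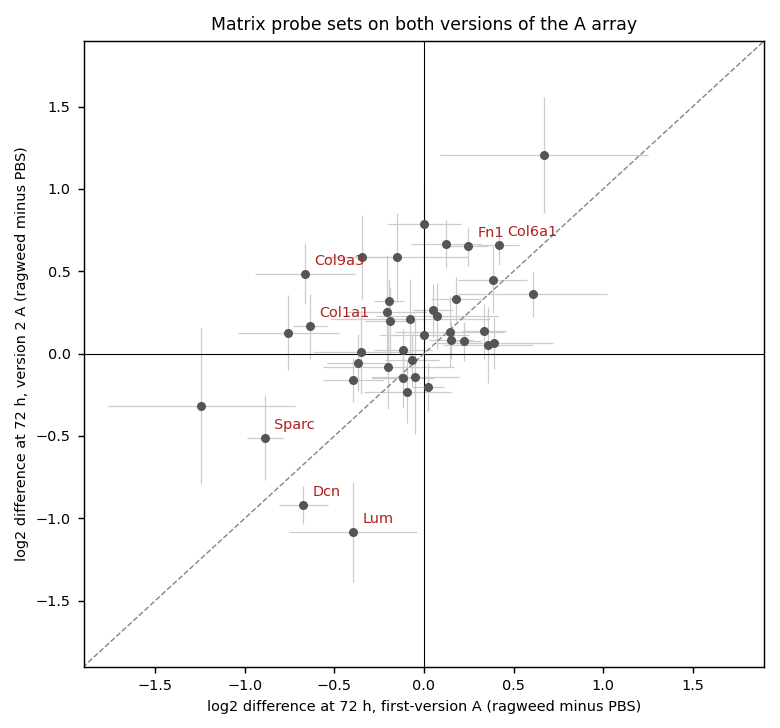
Log2 difference between ragweed and PBS at 72 h on first-version A (x axis) and version 2 A (y axis) for the 40 matrix probe sets tested on both, with SE bars and a dashed line where both are equal. Dcn, Sparc and Lum lie below 0 on both, Col6a1 and Fn1 above 0 on both, and Col1a1 94305_at moves from -0.64 to 0.17.

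Each A table was then tested alone, with p-values adjusted over that table, which for version 2 A was chosen after seeing the data. On first-version A, 3 of 46 members were lower at 72 h (1.04% of all tested probe sets) and 0 higher (1.71%). They were Sparc, Col1a1 94305_at and Dcn (adjusted p 0.00284, 0.0113 and 0.0438). On version 2 A, 1 of 50 was lower (0.497% of all) and 2 were higher (1.59%). Dcn was lower by 0.92 ± 0.12 (adjusted p 0.0175), and Col6a1 and Fn1 were higher by 0.66 ± 0.12 and 0.65 ± 0.12 (adjusted p 0.0482 for each). Adjusted together with first-version B and C, Dcn passed (adjusted p 0.0348), and Col6a1 and Fn1 did not (adjusted p 0.104 for each). Dcn was the member called on both A tables. Leaving out any 1 of the 6 samples of version 2 A ended each of these calls (adjusted p 0.0694 to 0.245), while Dcn stayed between -0.999 and -0.839. On first-version A alone, Sparc stayed called without each of 6 of the 8 samples, Col1a1 94305_at without each of 4 and Dcn without each of 2 (adjusted p up to 0.0624, 0.106 and 0.248).

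On version 2 A, the PBS samples of Dcn read 7221 and 7909 at 24 h and 8897 and 9196 at 72 h, and the ragweed samples of 72 h read 4525 and 5058. Both ragweed samples lay below all 4 PBS samples there, also those of 24 h, which had not been so on first-version A. For Col6a1 the PBS samples read 4397 and 4732 at 24 h and 5027 and 5498 at 72 h, and the ragweed samples 8889 and 7731. Fn1 read 2561 and 2264, 2329 and 2119, and 3537 and 3445 in the same order. In each case the ragweed samples lay outside the PBS range. A Col6a1 probe set found on version 2 alone, 162459_f_at, pointed the same way (1068 and 1618 in PBS and 1966 and 2061 in ragweed at 72 h, 0.62 ± 0.21, adjusted p 0.202), and Col6a2 was higher by 0.67 (adjusted p 0.0775).

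Col1a1 and Sparc were less clear on version 2. Col1a1 94305_at read 7031 and 4802 in PBS and 7227 and 5876 in ragweed at 72 h, a difference of 0.17 ± 0.20 (adjusted p 0.701 over the table), and 103709_at read 3837 and 2807 against 3640 and 3570. Both overlapped. Sparc read 12014 and 7013 in PBS and 6824 and 6083 in ragweed at 72 h, with no overlap but a wide PBS pair, and the difference was -0.51 ± 0.26 (adjusted p 0.345). When each sample's log2 values from both versions were averaged, an alternative chosen after seeing the data, the 72 h differences were -0.80 ± 0.11 for Dcn (adjusted p 0.0386), -0.70 ± 0.12 for Sparc (adjusted p 0.0896), 0.45 ± 0.08 for Fn1 (adjusted p 0.094), 0.54 ± 0.10 for Col6a1 (adjusted p 0.122) and -0.24 for Col1a1 94305_at.

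**Figure D4:**
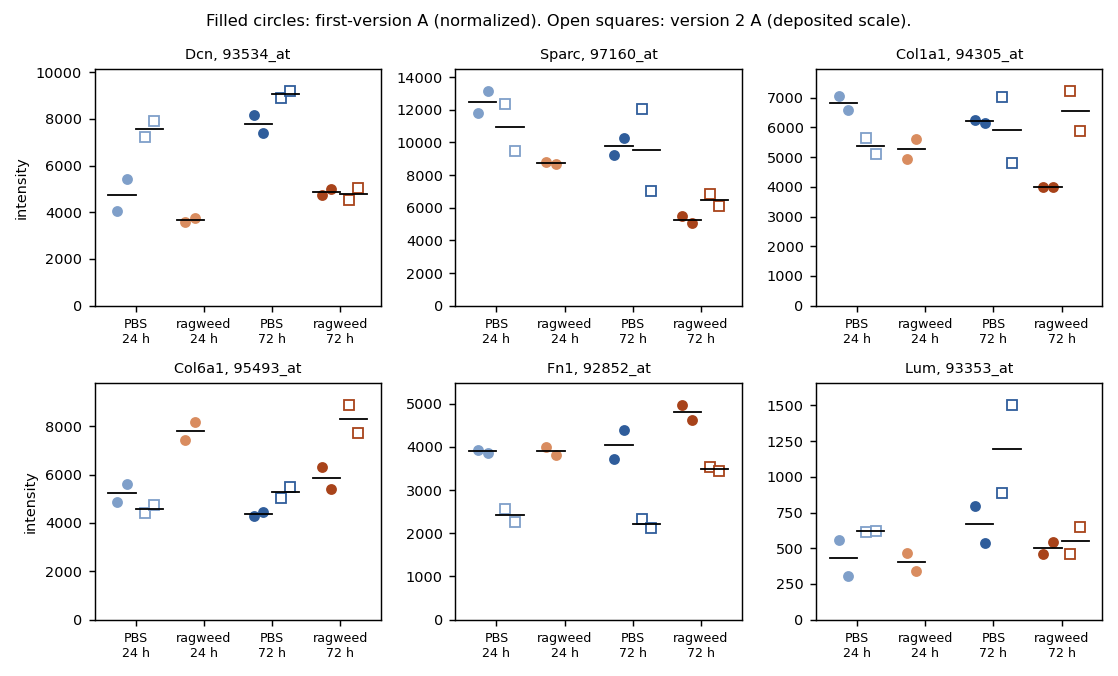
Intensity (y axis, from 0) of 6 matrix probe sets in each sample on first-version A (filled circles, normalized) and version 2 A (open squares, deposited scale), with a line at the mean of each pair. Ragweed samples of 72 h lie below PBS of 72 h for Dcn and Sparc and above it for Col6a1 and Fn1 on both versions, while Col1a1 94305_at separates on first-version A alone.

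Other members that stood out on version 2 A did not pass the test. Col7a1 had the largest 72 h difference there, with 111.7 and 322.8 in PBS and 464.4 and 989.4 in ragweed (1.29 ± 0.37, adjusted p 0.148), beside 328.6 and 283.2 in PBS at 24 h. Lum read 885.4 and 1504 in PBS and 457 and 648.3 in ragweed at 72 h (-1.08 ± 0.31, adjusted p 0.144). Vcan, which first-version A hardly detected, read 83.93 and 304.9 in PBS and 499.7 and 485.3 in ragweed (0.87 ± 0.27, adjusted p 0.166), and its PBS samples of 24 h, at 330.5 and 508.7, reached the ragweed values. Col17a1, a hemidesmosomal collagen of squamous and basal epithelium, read 365.8 and 394.8 in PBS and 269.9 and 233.4 in ragweed at 72 h (-0.59 ± 0.16, adjusted p 0.142). It lay at 131.1 and 123.8 in PBS at 24 h, so that it was higher in PBS at 72 h than at 24 h, as the squamous marker sums were. Ragweed at 24 h was not measured on this array. On first-version A another Col17a1 probe set outside the comparison, 102390_at, was not highest in PBS at 72 h. It read 789.3 and 566.8 in ragweed at 24 h and 748 and 239.8 in PBS at 72 h. The part of squamous epithelium was not tested. Lox, which cross-links collagen and elastin, had a bright probe set there, 160095_at, which read 848.3 and 541 in PBS and 480.4 and 753.3 in ragweed at 72 h and overlapped.

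On the B and C arrays 5 member probe sets each were tested on both versions, and 0 were called on either. The median absolute gap at 72 h was 0.22 on B, where 2 of 5 exceeded 0.5, and 0.79 on C, where 4 of 5 did. At 24 h it was 0.65 on B and 0.73 on C, with 3 of 5 over 0.5 on each. The log2 intensities of member probe sets on the 2 versions correlated, by sample, from -0.436 to 0.875 on B (7 probe sets). On C (8 probe sets) the correlations ran from 0.872 to 0.954. Col14a1 109553_at on B, -1.04 at 72 h on version 2, was 0.61 on the first version, and Col6a4 130999_f_at on C went from -1.43 to 0.18. Col5a1 135189_f_at on C, -0.56 at both times on version 2, was -0.17 and 0.10 on the first version. Col23a1 128550_at on C, which overlapped at 72 h on version 2, read 894.3 and 818.7 in PBS and 295.7 and 274 in ragweed there on the first version (-1.43 ± 0.57, adjusted p 0.398), and it lay lower at 24 h on both (-1.10 on the first). The lower values of Col14a1, Col6a4 and Col5a1 at 72 h were therefore not seen on the other version, and those of Col23a1 were seen there alone.

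Other genes of the matrix pathway were read from lists of enzymes, regulators and receptors. Of 17 collagen processing genes, 13 were tested and 0 were called at either time (0 at 24 h, and 1 higher and 4 lower at 72 h, at an unadjusted p of 0.05). At 72 h Ppib, a prolyl isomerase of collagen folding, differed by 0.47 ± 0.11 (adjusted p 0.181). P4hb and P4ha2, subunits of prolyl hydroxylase, differed by -0.84 ± 0.24 (adjusted p 0.267) and -0.57 ± 0.17 (adjusted p 0.307). Of 14 genes of TGF-beta signalling, 12 were tested with 0 called (2 higher at 24 h and 1 higher at 72 h at an unadjusted p of 0.05): Tgfbi, a TGF-beta-induced matrix protein that macrophages also make, differed by 1.15 ± 0.25 at 24 h (adjusted p 0.195) and Ccn2 by 0.34 ± 0.10 at 72 h (adjusted p 0.3).

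Of 14 laminins and other basement membrane genes, 9 were tested with 0 called at either time (1 lower at each at an unadjusted p of 0.05), and their medians were -0.22 and -0.16. Lamb1 differed by -0.62 ± 0.20 at 24 h (adjusted p 0.386). Of 12 elastic fibre and small proteoglycan genes beside the members, 9 were tested with 0 called (1 and 2 lower at an unadjusted p of 0.05). Prelp, a leucine-rich proteoglycan of basement membrane and cartilage, came nearest, at -1.50 ± 0.26 at 72 h (adjusted p 0.0563). Of 9 collagen and fibronectin receptors, 8 were tested with 0 called (1 lower at each time at an unadjusted p of 0.05), among them Itga2 at -0.54 ± 0.14 at 24 h (adjusted p 0.281).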

How the data were processed

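Per the labels, lung RNA was hybridised to 47 arrays; 1 ragweed array of 24 h without a letter equalled its 1a partner divided by 2.6272 and was counted with it, which left 46. The deposited values are linear intensity on the authors' scale, with 1 value per probe set; the sources used here name no software for it. After 66 control probe sets per table were removed, each first-version A array was scaled (2% trimmed mean set to 800) and then quantile normalized, version 2 B and C kept the authors' scale, and values were floored at the 40th percentile and taken to log2. A probe set was tested where at least 2 arrays exceeded the floor (6896 on A, 9190 on B, 9164 on C) with limma 3.58.1 in R 4.3.3: 1 mean per group, 8 samples, 4 residual degrees of freedom, eBayes with a trend, and Benjamini-Hochberg adjustment over the 3 tables at 0.05. The script was tested on simulated data.

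Symbols came from the platform annotation, updated by RefSeq: 53043 of 74521 rows had 1 symbol, 1654 several and 19824 none. One probe set stood for a gene in context lists: A before B before C, then the brightest. Named members were those called, the 5 largest rises and falls without overlap at each time, and a fixed list; up to 4 genes per context list were named. The members and lists were chosen with earlier results of these data known. The letters 1a and 1b do not pair samples: deviations of the same letter correlated from -0.046 to 0.035 between groups. Alternatives changed the scaling, floor, filter, array version, adjustment, reference group and variance model, added the letter as a block, and left out each sample.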

Additional observations from a re-analysis of the deposited data

Results flagged for a closer look

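On version 2 A, an array outside the main comparison, 3 matrix genes passed the test at 72 h with p-values adjusted over that table alone, a choice made after seeing the data. Dcn differed between ragweed and PBS by -0.92 on the log2 scale, and on first-version A it passed as well under the same adjustment (adjusted p 0.0438). Col6a1 differed by 0.66 and Fn1 by 0.65, and neither passed when that table was adjusted together with first-version B and C (adjusted p 0.104 for each). On version 2 A the PBS samples of 24 h lay on the side of PBS at 72 h for all 3 genes. On first-version A they did not for Dcn, where the ragweed samples of 72 h differed by 0.05 from PBS of 24 h. For the difference in the ragweed effect between the times, 0 members were called (limma). An unadjusted p under 0.05 was found for 7 of 70 members, beside 1857 of all 25250 probe sets.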

How the results depend on the processing

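The counts of called members were 0 at 24 h, 2 at 72 h, 3 over both times, 0 for the difference between the times, 0 between the PBS times and 2 between the ragweed times. With 1 sample left out, they ran from 0 to 1 at 72 h and from 0 to 2 over both times and were 0 between the ragweed times; the sample left alone in its group is assumed to vary like the others. With no variance trend all 3 were 0. With the letter as a replicate block they were 1 at 72 h and 1 between the ragweed times (2 over both). A floor at the 20th percentile, or no filter on dim probe sets, gave 1 at 72 h and 0 between the ragweed times; values raised to 20 alone gave 1 and 1. Scaling without quantile normalization, the other array version, and the mean of both versions of A each gave 1 at 72 h, and all first-version A probe sets gave 1 between the ragweed times. Adjustment within each table gave 3 at 72 h and 1 between the PBS times. PBS of the other time as reference gave 2 at 24 h, and PBS of both times gave 1.

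At 72 h Col1a1 94305_at was 0.165 on the other array version, against -0.636; the cause was not tested. Of 1352 alternative values of named members, 1192 kept their direction and side of the threshold, and 76 that were not called changed sign. In 77 a call was lost, in 1 it was lost with a change of sign, and in 6 an uncalled value became called. Most named values were not called in the main fit, so the values that stayed the same are mainly uncalled ones. The labels tie the letters 1a and 1b to no shared animal or batch. Signal over background limits the dim members: 28 of the 70 tested were under the floor on some array.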
